A study of Mus musculus with 16 samples.

Results

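The genes described here are 9 leukocyte integrin subunits and adhesion ligands: Itgam, Itgb2, Itgal, Itga4, Itgb1, Itga6, Icam1, Icam2 and Vcam1. They were taken by gene symbol from the 54532 entries of a table of raw counts, and all 9 passed the filter on low counts that left 17736 genes for testing. Bulk RNA of brain from female mice of 9 months of age was sequenced in 16 libraries, 4 in each of 4 groups: mice with Ch25h and without the tau transgene (Ch25h+/+ Tau-), with both (Ch25h+/+ Tau+), with neither (Ch25h-/- Tau-), and with tau but without Ch25h (Ch25h-/- Tau+). Ch25h encodes cholesterol 25-hydroxylase, an interferon-induced enzyme that makes 25-hydroxycholesterol, and -/- is read here as loss of both copies. Tau+ is read as carrying a tau transgene and Tau- as lacking it. The line, the promoter of the transgene and the genetic background are not given in the sources used here. All groups share sex and age. Nothing in the labels says whether the libraries of a group came from separate animals, so p-values measure the spread between these libraries.

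Integrins are receptors made of an alpha and a beta subunit that join the cell surface to matrix or to other cells. On leukocytes and microglia the beta 2 chain Itgb2 (CD18) pairs with Itgam (CD11b) as complement receptor CR3 or with Itgal (CD11a) as LFA-1, and both bind Icam1 on endothelium. The beta 1 chain Itgb1 pairs with Itga4 as VLA-4, which binds Vcam1, and with Itga6 as a laminin receptor. In the brain, microglia are the main cells that carry the beta 2 integrins, and the vessel wall carries Icam1, Icam2 and Vcam1 and presents them to passing blood cells.

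The genes lie on 7 chromosomes of the mouse genome (GRCm38, gene models of GENCODE M21). Itgam spans chr7:128062640-128118491 and Itgal chr7:127296260-127335138, both on the plus strand. Itgb2 spans chr10:77530252-77565708, Itga4 chr2:79255426-79333123, Itga6 chr2:71745616-71858416, Itgb1 chr8:128685654-128733200 and Icam1 chr9:21015985-21028817, all on the plus strand. Icam2 (chr11:106377656-106388075) and Vcam1 (chr3:116109949-116129688) are on the minus strand. All 9 are annotated as protein-coding, and values are sums over the whole gene as counted by the submitters.

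Some of these positions bear on how a count may be read. Of the 5024 exon bases of Itgam, 3450 are also annotated to Gm49368 on the same strand. Gm49368 had 1 count in all 16 libraries together, and whether reads in the shared bases were assigned to Itgam or dropped is not given in the sources used here. Icam1 shares 511 exon bases with the antisense gene Gm47079, which had 612 counts in total, and Itga4 shares 1124 with Cerkl on the opposite strand, which had 462. Strand use in counting is not given in the sources used here, so reads of these pairs cannot be told apart. Gm47079 stood at 2.13 ± 0.414 CPM (a counts-per-million value; SD, n = 4) in Ch25h+/+ without tau and 1.62 ± 0.362 with tau, and at 2.07 ± 0.524 and 2.10 ± 0.293 in the Ch25h-/- groups, lowest in the group where Icam1 was highest.

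The sequence before the start of a gene is shown for 3 genes: Icam1, the ligand whose libraries separated with tau in Ch25h+/+, Itgam, the alpha chain of its microglial receptor, and Itgb1, the broadly used beta chain, for comparison. Each is the 250 bases before the RefSeq start on the plus strand of GRCm38.p6, 5′ to 3′, with matches to the searched motifs in capitals. RefSeq promoters were held for 4 of the 9 genes, the fourth being Itga4.
Icam1, chr9:21015690-21015939: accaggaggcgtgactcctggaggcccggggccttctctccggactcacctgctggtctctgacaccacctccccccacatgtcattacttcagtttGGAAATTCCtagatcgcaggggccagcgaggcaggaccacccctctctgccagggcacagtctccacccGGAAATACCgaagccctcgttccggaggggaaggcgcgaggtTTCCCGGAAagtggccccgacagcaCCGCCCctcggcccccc
Itgam, chr7:128062390-128062639: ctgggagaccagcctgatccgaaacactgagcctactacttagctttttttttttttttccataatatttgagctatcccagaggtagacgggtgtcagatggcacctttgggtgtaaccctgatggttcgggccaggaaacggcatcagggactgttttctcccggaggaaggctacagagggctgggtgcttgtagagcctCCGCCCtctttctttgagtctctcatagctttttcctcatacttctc
Itgb1, chr8:128685404-128685653: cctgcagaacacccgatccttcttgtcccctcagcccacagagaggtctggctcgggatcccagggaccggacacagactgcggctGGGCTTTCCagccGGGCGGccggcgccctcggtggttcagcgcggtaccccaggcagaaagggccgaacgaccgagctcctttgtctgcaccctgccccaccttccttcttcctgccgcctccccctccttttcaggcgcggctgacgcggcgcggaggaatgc

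A set of 6 short motifs was searched on both strands, with N for any base. Icam1 held an NF-kB-like match (GGNNNTTCC) 153 to 145 bases before the start, where the motif matches on both strands, and another on the minus strand at 84 to 76. It also held a STAT-like match (TTCNNNGAA) at 42 to 34. Itgb1 held an NF-kB-like match at 164 to 156, and Itgam and Itga4 held neither of these motifs. An Sp1-like match (GGGCGG) was in all 4. A PU.1-like motif (GAGGAAGT), an interferon response element-like motif (GAAA, then any 2 bases, then GAAA) and an AP-1-like motif (TGANTCA) were in 0 of the 4. Among 32851 RefSeq promoters of the same window the shares with a match were 15.7% for the NF-kB-like, 7.02% for the STAT-like, 32.7% for the Sp1-like, 2.44% for the PU.1-like, 2.98% for the interferon response element-like and 6.75% for the AP-1-like motif. A match of letters is a description and not a binding site.

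The libraries held 15530352 to 25602500 counts. Ch25h had 0 counts in all 8 Ch25h-/- libraries, and Prnp, used to check the tau labels, was 708 to 839 CPM in libraries labelled Tau- and 1414 to 1935 in those labelled Tau+. The labels name frontal cortex and the text of the series the hippocampus: 6 cortex markers summed to 629 to 851 CPM and 6 hippocampus markers to 33.7 to 74.4. The ribosomal transcript CT010467.1 read 2289 to 5684 CPM (on unscaled totals) in 7 rRNA-rich libraries, all Ch25h-/-, and 111 to 475 in the other 9, which are rRNA-poor. Replicate 1 of Ch25h-/- Tau+ was the single Ch25h-/- library among those 9. Comparisons of Ch25h genotype are therefore also comparisons of this library class, except through that library, while both groups of the tau effect in Ch25h+/+ were rRNA-poor throughout.

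All 10 markers of homeostatic microglia had counts in every library, as did 6 of the 7 of activated microglia, the exception being Cst7 with counts in 14 of 16. The homeostatic markers, such as P2ry12, Tmem119 and Csf1r, summed to between 321 and 358 CPM in Ch25h+/+ Tau- libraries and between 394 and 502 in Ch25h+/+ Tau+ libraries. The sums of the Ch25h-/- groups were 324 to 360 CPM without and 326 to 394 CPM with tau. The activated markers, such as Cd68, Trem2 and Axl, summed to between 93.7 and 110 CPM without tau and between 152 and 229 with tau in Ch25h+/+, and to between 92.2 and 116 CPM in all Ch25h-/- libraries. Both sums were thus higher in Ch25h+/+ Tau+ than in Ch25h+/+ Tau-, and in such bulk libraries fewer cells of a type and less RNA per cell cannot be told apart. The markers of blood leukocytes were low. Neutrophil markers (6 genes) summed to at most 2.03 CPM, monocyte markers (4 genes) to at most 1.33, B cell markers (4 genes) to at most 1.42 and NK cell markers (4 genes) to at most 0.511, and Ly6g had counts in 2 of 16 libraries. The 9 T cell markers summed to 6.2 to 14.9 CPM, most of it Trbc2, while Cd3e was at 0 to 6 counts per library. Some of these low sums differed with the groups: the NK cell sums were 0.185 to 0.511 CPM in Ch25h+/+ Tau+ and at most 0.167 in the other 12 libraries. The T cell sums overlapped between all groups, with medians of 11.1 CPM without and 12.5 CPM with tau in Ch25h+/+. By gene, the Ch25h+/+ mean was higher with tau for 8 of 9 T cell markers, all but Cd4 (1.64 CPM without and 0.796 with tau), for all 4 markers each of B cells, NK cells and monocytes, and for 3 of 6 of neutrophils. The part of these cells in the Itgb2 values was not tested.

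Per kilobase of exon, which allows genes to be compared, Itgb1 had the highest level, 14.8 ± 1.37 CPM per kb (SD over 16 libraries). Vcam1 (2.97 ± 0.576) and Itga6 (2.96 ± 0.383) followed and could not be ordered, with Vcam1 above Itga6 in 8 of 16 libraries. Itgb2 was at 2.53 ± 1.30 CPM per kb, Itga4 at 1.35 ± 0.451 and Icam2 at 1.23 ± 0.300, and Itga4 lay above Icam2 in 9 of 16 libraries. Itgam was at 1.08 ± 0.231, Icam1 at 0.731 ± 0.286 and Itgal at 0.343 ± 0.104 CPM per kb. If the bases that Itgam shares with Gm49368 gave no counts, its level over the unshared exon bases would be 3.45 CPM per kb, so its place in the order is not settled. Itgal was the lowest in all 16 libraries, with 23 to 78 counts each. Relative to the mean over all 16 libraries Itgb2 varied most (SD 51.4% of the mean) and Itgb1 least (9.24%).

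**Figure D1:**
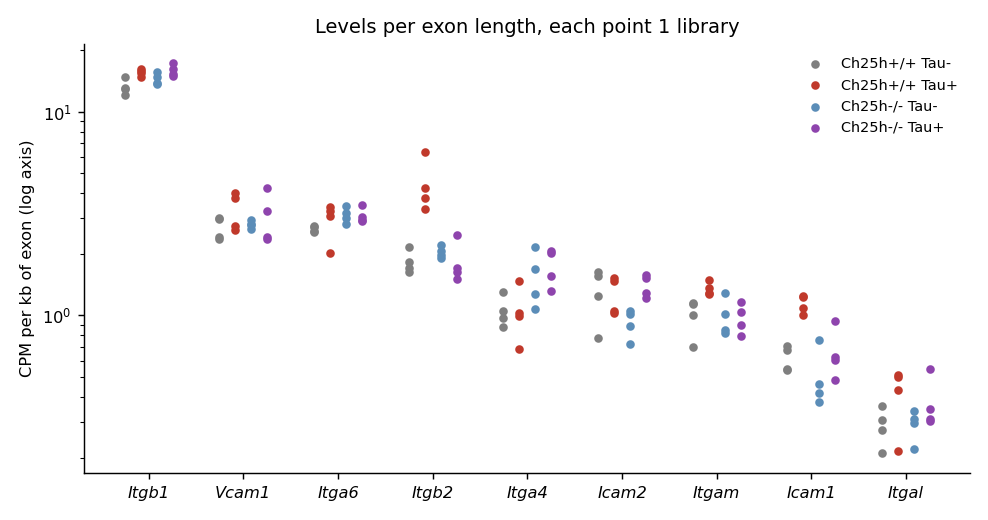
CPM per kilobase of exon on a log axis for the 9 genes, ordered by their mean, each point 1 library coloured by group. Itgb1 lies above the other 8 genes in every library, and the 4 Ch25h+/+ Tau+ points of Itgb2, from 3.35 to 6.36, lie above the other 12.

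Itgb2, the shared chain of the beta 2 integrins, had its highest values in Ch25h+/+ Tau+. It read 10.2, 11.6, 12.8 and 19.4 CPM in the 4 Ch25h+/+ Tau+ libraries and 6.61, 4.98, 5.57 and 5.19 in Ch25h+/+ Tau-. In Ch25h-/- it read 6.75, 6.29, 6.03 and 5.86 CPM in Tau- and 4.62, 7.54, 5.0 and 5.25 in Tau+. Every Ch25h+/+ Tau+ library was above every other library, and the other 3 groups overlapped. The means were 13.5 ± 4.08 CPM in Ch25h+/+ with tau and 5.58 ± 0.723 CPM without (SD, n = 4), and 5.60 ± 1.32 and 6.23 ± 0.388 CPM in Ch25h-/- with and without tau.

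The tau effect in Ch25h+/+ asks what the transgene changes where the enzyme is present. Itgb2 rose 2.42-fold (log2 fold change 1.27, standard error 0.19, adjusted p = 0.000868, edgeR quasi-likelihood test with Benjamini-Hochberg adjustment over all genes tested, the test of all values below). Of the 9 genes 1 passed, against 1.56% of all genes tested, and 4 had an unadjusted p under 0.05, against 9.38%. Of the 9 log2 fold changes 8 were above 0 and their median was 0.29, where the median over all genes was -0.01. In 3 genes, Itgb2, Icam1 and Itgam, every Tau+ library was above every Tau- library, which was so for 3.89% of all genes. Replicate 4 had the highest value, and without it the log2 fold change of Itgb2 was 1.05 (edgeR adjusted p = 0.00252).

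**Figure D2:**
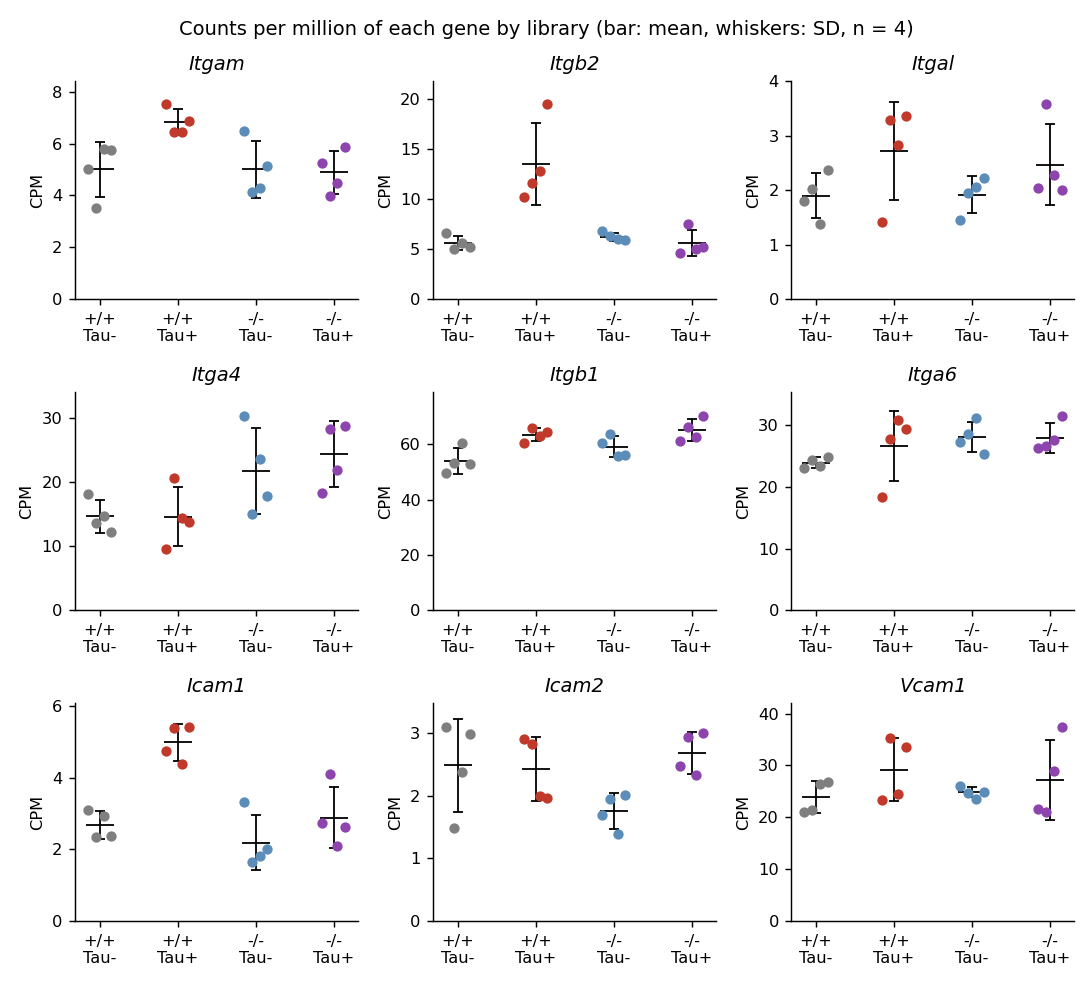
CPM of the 9 genes in each library, by group, with mean and SD (n = 4), each panel on its own axis from 0. Itgb2 and Icam1 stand higher in Ch25h+/+ Tau+ than in the other 3 groups, with all 4 libraries above all others, and Itga4 has wide overlapping spreads in the Ch25h-/- groups.

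Itgam and Itgal, the alpha chains among the 9 genes that pair with Itgb2, had smaller differences that did not pass. Itgam, the CD11b chain, read 7.51, 6.44, 6.46 and 6.86 CPM in Ch25h+/+ Tau+ and 5.04, 3.50, 5.78 and 5.74 in Ch25h+/+ Tau-. The groups did not overlap, but the difference (log2 fold change 0.44, standard error 0.18) did not pass (adjusted p = 0.409, edgeR). Itgal, the CD11a chain of LFA-1, read 1.42, 3.28, 2.84 and 3.36 CPM in Ch25h+/+ Tau+ and 1.80, 2.02, 1.38 and 2.37 in Ch25h+/+ Tau-. Of its Tau+ libraries 3 were above all Tau- libraries and replicate 1 was not, and the difference of 0.54 (standard error 0.27) did not pass (edgeR adjusted p = 0.558).

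Icam1, the endothelial ligand of both beta 2 integrins, read 4.74, 5.38, 4.37 and 5.42 CPM in Ch25h+/+ Tau+ and 3.10, 2.35, 2.93 and 2.37 in Ch25h+/+ Tau-. All 4 Tau+ libraries were above all Tau- libraries. The difference was 1.85-fold (log2 fold change 0.89, standard error 0.22), and its adjusted p of 0.0501 (edgeR) missed the threshold of 0.05. It lay on the other side of the threshold in 8 of 11 alternative fits that keep all libraries of this comparison, among them DESeq2 (adjusted p = 0.00761, in a fit that called 2.39% of all genes), limma-voom (0.00919, with 2.81% called) and the fit of the 8 libraries compared (0.0227). It also passed (edgeR) with 1 library outside the comparison left out, without replicate 2 (0.0276) or 3 (0.0434) of Ch25h-/- Tau+ and without replicate 1 (0.0183) or 2 (0.0454) of Ch25h-/- Tau-. It did not pass without any other single library, with edgeR adjusted p of 0.0605 to 0.175 over the 8 libraries of the comparison and 0.0506 to 0.0600 over the other 4. With counts of 43 to 128 per Ch25h+/+ library and an antisense gene that overlaps it, Icam1 is reported as near the threshold and uncertain.

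Icam2, another endothelial ligand of LFA-1, and Vcam1, the ligand of VLA-4, did not pass. Icam2 was at 2.48 ± 0.739 CPM in Ch25h+/+ Tau- and 2.42 ± 0.508 in Ch25h+/+ Tau+ (SD, n = 4), a log2 difference of -0.04 (standard error 0.23). Vcam1 was at 23.9 ± 3.11 and 29.2 ± 6.12 CPM (SD, n = 4), a difference of 0.29 (standard error 0.17), and of its 4 Tau+ libraries 2 were above all Tau- libraries. Of 39 genes tested within 5 Mb of Vcam1 on chromosome 3, 0 passed for the tau effect in either genotype.

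Among the beta 1 integrins Itgb1, a subunit found on most cell types, was at 54.1 ± 4.62 CPM in Ch25h+/+ Tau- and 63.5 ± 2.31 in Ch25h+/+ Tau+ (SD, n = 4). The difference of 0.23 (standard error 0.07) did not pass (edgeR adjusted p = 0.191), and the lowest Tau+ library (60.4 CPM) lay just under the highest Tau- library (60.5). Itga4, the VLA-4 alpha chain, had 14.7 ± 2.53 and 14.6 ± 4.57 CPM (SD, n = 4) and a log2 difference of 0.00 (standard error 0.23). Itga6, the laminin receptor chain, was at 23.97 ± 0.869 and 26.6 ± 5.66 CPM (SD, n = 4), and Ch25h+/+ Tau+ replicate 1, at 18.4 CPM, was the lowest of its 16 libraries. Over many genes that library also differed most from its group. Its chi-square per degree of freedom was 37.4, 39.5 and 24.7 against replicates 2, 3 and 4, and 13.9 to 16.9 between those.

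In Ch25h-/- mice, the same contrast asks what tau changes without the enzyme. Of the 9 genes 0 passed (edgeR), against 0.0395% of all genes, and at an unadjusted p under 0.05 there was 1 of 9, against 3.68% of all genes. DESeq2 and limma-voom also called 0 of the 9, against 0.079% and 0.0338% of all genes with an adjusted p. Itgb2 differed by -0.16 (standard error 0.19) and Icam1 by 0.39 (standard error 0.23) on the log2 scale. Icam1 read 2.74, 4.09, 2.10 and 2.62 CPM in Ch25h-/- Tau+ and 3.31, 1.65, 1.81 and 2.01 in Ch25h-/- Tau-, with overlap. The alpha chains Itgam (-0.03, standard error 0.19) and Itgal (0.35, standard error 0.27) overlapped too, at 4.89 ± 0.838 and 2.47 ± 0.746 CPM with tau (SD, n = 4). Vcam1 was at 27.3 ± 7.71 CPM with and 24.8 ± 0.986 CPM without tau (SD, n = 4), a log2 difference of 0.13 (standard error 0.17). With tau it read 21.6, 20.99, 29.04 and 37.5 CPM beside choroid sums of 55.8, 58.997, 2308 and 2767. Without tau the choroid sums ran from 46.1 to 1633 CPM. Vcam1 was at 26.02 CPM in the library with the lowest of them and 24.7 in that with the highest. The beta 1 subunits differed by 0.14 in Itgb1 (standard error 0.07), 0.16 in Itga4 (standard error 0.22) and -0.0035 in Itga6 (standard error 0.12).

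The gene under this unadjusted threshold was Icam2. It read 2.46, 2.92, 2.33 and 2.998 CPM in Ch25h-/- Tau+ and 1.69, 1.94, 1.39 and 2.01 in Ch25h-/- Tau-. The groups did not overlap, which was so in this direction for 1.14% of all genes. The log2 fold change was 0.60 (standard error 0.24), with an adjusted p of 1.0 (edgeR), and each library held 23 to 63 counts. The Ch25h-/- Tau+ mean, 2.68 ± 0.331 CPM, was near that of both Ch25h+/+ groups, and Ch25h-/- Tau- (1.76 ± 0.283 CPM; SD, n = 4) was the lowest group.

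**Figure D3:**
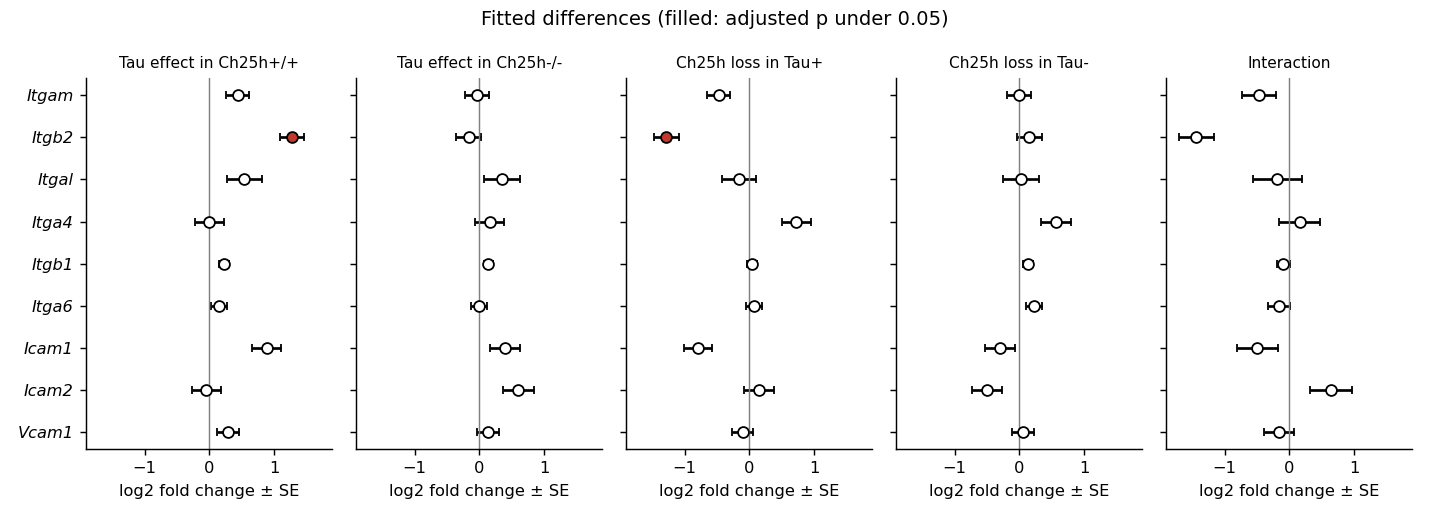
Log2 fold change with its standard error for the 9 genes in the 5 comparisons, filled where the adjusted p was under 0.05. Itgb2 is the filled point in the tau effect in Ch25h+/+ (1.27) and in Ch25h loss in Tau+ (-1.28), and the comparisons share groups.

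Ch25h loss in Tau+ asks how Tau+ mice without the enzyme differ from Tau+ mice with it. This comparison shares the Ch25h+/+ Tau+ libraries with the tau effect in Ch25h+/+, so its values are not separate evidence about that group. Itgb2 was 2.43-fold lower in Ch25h-/- (log2 fold change -1.28, standard error 0.19, edgeR adjusted p = 0.00146), and 1 of the 9 genes passed, against 3.55% of all genes, with 4 of 9 at an unadjusted p under 0.05, against 23.9%. In 3 genes, again Itgb2, Icam1 and Itgam, every Ch25h-/- library was below every Ch25h+/+ library, which was so for 5.74% of all genes. With a covariate for the rRNA class the log2 fold change of Itgb2 was -1.55 but did not pass (edgeR adjusted p = 0.118), as in the rRNA-poor libraries alone (-1.55, 0.357), where the Ch25h-/- side is 1 library. That library, Ch25h-/- Tau+ replicate 1, had 4.62 CPM, the lowest Itgb2 value of the 16.

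The other differences in Tau+ did not pass. Icam1 differed by -0.79 (standard error 0.22, edgeR adjusted p = 0.0540) and Itgam by -0.47 (standard error 0.18, 0.126). Icam1 passed with DESeq2 (adjusted p = 0.0140) and limma-voom (0.0160), which called 9.79% and 10.6% of all genes, and in edgeR without replicate 2 of Ch25h-/- Tau+ (0.0323) or replicate 1 of Ch25h-/- Tau- (0.0352). Itga4 was the gene with the largest difference in the other direction, 0.72 (standard error 0.22, edgeR adjusted p = 0.0743). It read 18.3, 28.4, 21.9 and 28.9 CPM in Ch25h-/- Tau+ and 9.55, 20.7, 14.4 and 13.9 in Ch25h+/+ Tau+. Of the 4 Ch25h-/- libraries 3 were above all Ch25h+/+ libraries, and the lowest Ch25h-/- library was the rRNA-poor replicate 1. Itga4 passed with DESeq2 (adjusted p = 0.0201) and limma-voom (0.0301), and in edgeR without replicate 2 of Ch25h+/+ Tau+ (0.0249) or replicate 1 of Ch25h-/- Tau+ (0.0342). The remaining genes differed by -0.16 in Itgal (standard error 0.26), 0.04 in Itgb1 (standard error 0.07), 0.07 in Itga6 (standard error 0.12), 0.15 in Icam2 (standard error 0.23) and -0.10 in Vcam1 (standard error 0.17), each with an edgeR adjusted p of at least 0.733.

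In Tau- mice Ch25h loss gave 0 calls among the 9 genes (edgeR), against 1.03% of all genes, with 2 of 9 at an unadjusted p under 0.05, against 20.9% of all genes. DESeq2 and limma-voom also called 0 of the 9, against 7.16% and 7.83% of all genes. Itga4 was at 21.8 ± 6.77 CPM in Ch25h-/- and 14.7 ± 2.53 in Ch25h+/+ (SD, n = 4), a log2 difference of 0.57 (standard error 0.23, edgeR adjusted p = 0.162), and it thus stood higher without Ch25h in both tau states. All Ch25h-/- libraries of Tau- are rRNA-rich and all Ch25h+/+ ones rRNA-poor. With the covariate for rRNA class, estimated through Ch25h-/- Tau+ replicate 1 alone among Ch25h-/- libraries, the difference of Itga4 was 0.04 (standard error 0.41) in Tau- and 0.32 (standard error 0.33) in Tau+, with edgeR adjusted p of 1.0 and 0.976. Icam2 differed by -0.50 (standard error 0.23, edgeR adjusted p = 0.234). Itga6 read 27.2, 28.6, 31.2 and 25.3 CPM in Ch25h-/- and 23.1, 24.5, 23.4 and 24.9 in Ch25h+/+. These libraries did not overlap, as was so in this direction for 7.64% of all genes, and the difference of 0.23 (standard error 0.12) did not pass (edgeR adjusted p = 0.303). Of the beta 2 subunits Itgb2 differed by 0.16 (standard error 0.19), Itgam by -0.0054 (standard error 0.18) and Itgal by 0.02 (standard error 0.28). Itgb1 differed by 0.13 (standard error 0.07), Icam1 by -0.30 (standard error 0.23) and Vcam1 by 0.06 (standard error 0.17).

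The interaction asks whether the tau effect differed between the genotypes. For Itgb2 the tau effect was lower in Ch25h-/- by 1.44 on the log2 scale (-1.44, standard error 0.27), and its adjusted p of 0.0728 (edgeR) did not pass. Of the 9 genes 0 passed, against 0.0338% of all genes, and 1 of 9 was at an unadjusted p under 0.05, against 4.13%. DESeq2, which called 0.31% of all genes, called Itgb2 (adjusted p = 0.000969), as did edgeR with every gene of at least 1 count (0.00215), with replicate 1 of Ch25h+/+ Tau+ left out (0.0237) and with replicate 2 of Ch25h-/- Tau+ left out (0.0189). In limma-voom 0 of the 9 were called. The interaction values of the ligands were -0.49 in Icam1, 0.65 in Icam2 and -0.16 in Vcam1, and those of the other integrin chains -0.47 in Itgam, -0.19 in Itgal, 0.16 in Itga4, -0.09 in Itgb1 and -0.16 in Itga6. Their standard errors ran from 0.11 to 0.38.

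Ratios within a library depend little on library scaling and set a subunit against its partner or against markers of the cells that carry it. They were taken as differences of log2(CPM + 0.5). Of 44 such comparisons, 11 ratios in 4 contrasts, 0 passed with exact two-sided permutation tests and Benjamini-Hochberg adjustment. The smallest p that 4 against 4 libraries allow is 0.0286 (exact permutation test), which was 0.180 after adjustment, so the values are given as descriptions.

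Itgb2 was high in Ch25h+/+ Tau+ also relative to microglial markers. Its log2 ratio to the mean log2 value of the 10 homeostatic markers lay between -1.41 and -0.75 in Ch25h+/+ Tau+ and between -2.22 and -1.88 in Ch25h+/+ Tau-, with no overlap and a difference of 0.90 (exact permutation p = 0.0286, adjusted 0.180). Without Ch25h it lay between -2.36 and -1.94 in Tau+ and between -2.06 and -1.93 in Tau-. For Itgam the same ratio overlapped in all 4 groups, at -2.24 ± 0.28 without and -2.08 ± 0.17 with tau in Ch25h+/+, and at -2.30 ± 0.25 without and -2.38 ± 0.28 with tau in Ch25h-/- (SD, n = 4). The summed activated microglia markers were also highest in Ch25h+/+ Tau+, and their part in the rise of Itgb2 was not tested. Of that list Lpl did not separate this group, with means of 27.7 CPM there and 27.4 in Ch25h-/- Tau-.

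The mean ratios of Itgal and of Itgam to Itgb2 were lower in Ch25h+/+ Tau+ than in Ch25h+/+ Tau-. The log2 ratio of Itgal to Itgb2 was -2.13 ± 0.37 in Ch25h+/+ Tau+, -1.36 ± 0.35 in Ch25h+/+ Tau-, -1.49 ± 0.29 in Ch25h-/- Tau- and -1.05 ± 0.10 in Ch25h-/- Tau+ (SD, n = 4). The Tau+ groups did not overlap (-2.48 to -1.67 against -1.20 to -0.98), a difference of 1.09 (exact permutation p = 0.0286, adjusted 0.180). Between the Ch25h-/- groups the ratio was higher with tau by 0.44, also without overlap (exact permutation p = 0.0286, adjusted 0.180), and between the Ch25h+/+ groups it was lower by 0.78 (-0.78, exact permutation p = 0.0571, adjusted 0.229), with overlap. The log2 ratio of Itgam to Itgb2 was -0.90 ± 0.42 in Ch25h+/+ Tau+ and -0.16 ± 0.29 in Ch25h+/+ Tau- (SD, n = 4; exact permutation p = 0.0571), and the ranges overlapped.

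The ratio of Itga4 to Itgb1 followed Itga4, at -2.13 ± 0.39 in Ch25h+/+ Tau+ and -1.42 ± 0.23 in Ch25h-/- Tau+ (SD, n = 4; exact permutation p = 0.0571). Icam1 relative to the 8 endothelial markers, such as Cldn5 and Flt1, lay between -2.48 and -2.02 in Ch25h+/+ Tau+ and between -3.03 and -2.58 in Ch25h+/+ Tau-, with no overlap and a difference of 0.65 (exact permutation p = 0.0286, adjusted 0.180). The summed endothelial markers lay between 213 and 240 CPM in Ch25h+/+ Tau- and between 233 and 292 in Ch25h+/+ Tau+. For Icam2 the ratio lay between -2.98 and -2.61 in Ch25h-/- Tau+ and between -3.58 and -3.12 in Ch25h-/- Tau- (difference 0.46, exact permutation p = 0.0286, adjusted 0.180). Icam1 is also made by microglia and astrocytes, so a ratio to endothelial markers does not name its source.

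**Figure D4:**
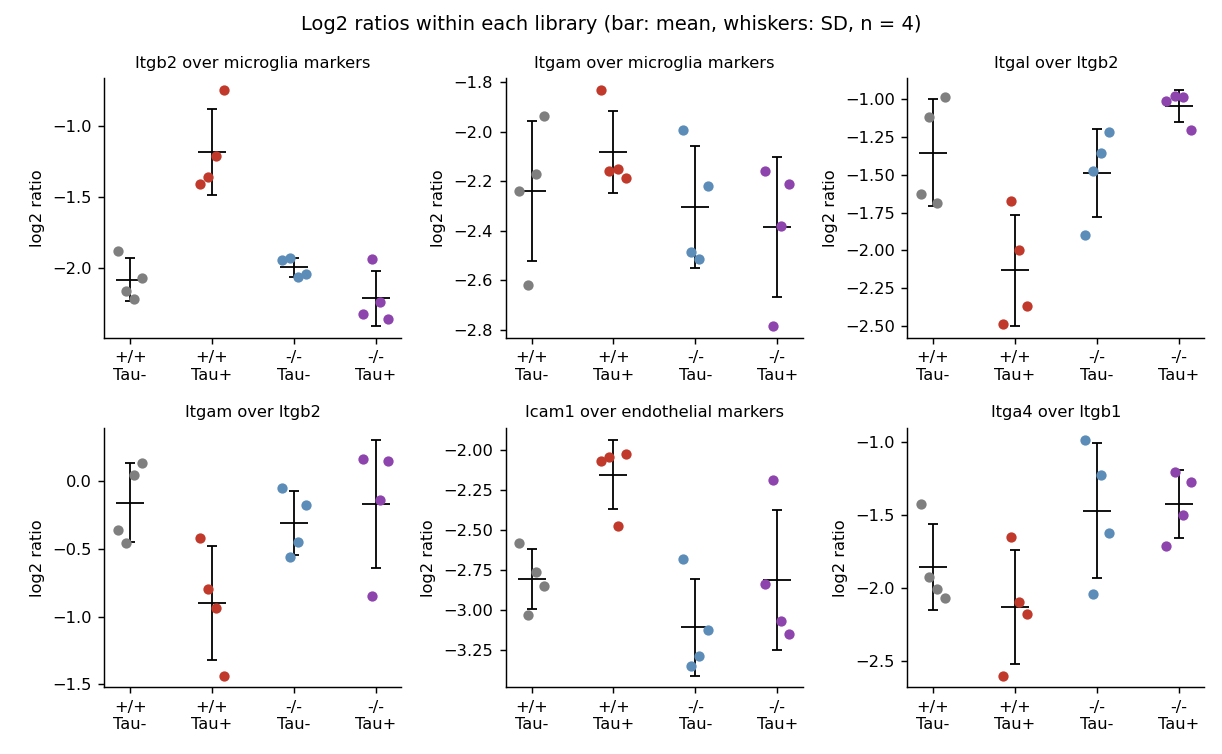
Log2 ratios within each library for 6 pairs, by group, with mean and SD (n = 4), where microglia markers are the 10 homeostatic genes. The ratio of Itgb2 to microglia markers is -1.41 or higher in all Ch25h+/+ Tau+ libraries and -1.88 or lower in all others, and the ratio of Itgal to Itgb2 is lowest in Ch25h+/+ Tau+.

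The genes whose levels followed each member most closely over the 16 libraries were found among 14481 genes by Pearson's r of log2(CPM + 0.5). These values are descriptions, since the points share groups, rRNA class and library preparation. Itgb2 was closest to Cd68, a lysosomal protein of macrophages (r = 0.96), and Mpeg1 (0.96), which encodes the macrophage pore protein perforin-2. Icam1 was closest to Themis2 (0.94) and Hcls1 (0.92), genes of haematopoietic cells. The chains of its receptors were not among its 3 closest genes.

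The other members had partners of other kinds. Itga4 was closest to Sesn3 (r = 0.96), the neural cell adhesion gene Chl1 (0.94) and Slc7a14 (0.94), and Itga6 to Wnk1 (0.94), the astrocyte glutamate transporter Slc1a2 (0.94) and Fat1 (0.93). Vcam1 was closest to Ephx1 (0.90), Cgnl1 (0.90) and the interleukin 1 receptor Il1r1 (0.89), and Itgb1 to Lamp2 (0.86), Ctnna1 (0.82) and Cd55 (0.81). The closest genes were Rps19-ps3 (0.85), Tagln2 (0.84) and Myl9 (0.84) for Itgam, Tgfbr1 (0.77) and Palld (0.77) for Itgal, and Lzts1 (0.76), Uchl1 (0.76) and Supt3 (0.74) for Icam2.

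The wider adhesion pathway was read from 4 lists. Of 20 other integrin subunits 16 were tested, and with tau in Ch25h+/+ 2 rose, Itgax and Itgb5, where 1.56% of all genes passed in either direction. Itgax, the CD11c chain that also pairs with Itgb2, read 3.20, 9.30, 10.1 and 21.9 CPM in Ch25h+/+ Tau+ and at most 0.508 in Ch25h+/+ Tau-. The highest was replicate 4, as for Itgb2, and replicate 1 was the lowest in both genes. In Ch25h-/- Tau+ it read 0.469, 2.73, 0.341 and 0.749 CPM, and replicate 2, the highest, was also the highest for Itgb2 in that group. In Ch25h-/- Tau- Itgax read 0.301, 0.176, 0.0603 and 0.112 CPM, at 1 to 5 counts per library, with no overlap between these groups. Its log2 fold change with tau in Ch25h-/- was 2.61 (standard error 0.88) and did not pass (edgeR). Itgb5, a vitronectin receptor chain, read 72.8, 83.0, 84.1 and 100.2 CPM with tau and 58.2, 58.3, 65.0 and 66.9 CPM without, with no overlap. It rose by 0.45 (standard error 0.09, edgeR adjusted p = 0.0140).

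Of 31 genes for integrin activation and adaptors all were tested and 4 rose with tau in Ch25h+/+, where 1.56% of all genes passed in either direction: Fgr, Fyb, Fermt3 and Lyn. Fermt3 encodes kindlin-3, which binds the tail of beta chains in blood cells and switches integrins on. It read 8.62, 7.28, 7.72 and 9.90 CPM in Ch25h+/+ Tau+ and 5.27, 4.59, 4.88 and 5.59 in Ch25h+/+ Tau-, with no overlap (log2 fold change 0.72, standard error 0.15, edgeR adjusted p = 0.0133). Fyb, the adaptor ADAP, rose by 1.09 (standard error 0.21) and the Src family kinase Lyn by 0.66 (standard error 0.15). Fgr, another Src family kinase of myeloid cells, had 19 to 38 counts per library in Ch25h+/+ Tau+ but 1 to 5 in the Ch25h+/+ Tau- libraries.

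Of 20 matrix and soluble ligands 17 were tested and 4 rose with tau in Ch25h+/+, beside the same 1.56% of all genes: C3, Spp1, Vtn and Fn1. C3, whose cleavage product iC3b is bound by CR3, read 1.36, 3.20, 7.58 and 27.5 CPM in Ch25h+/+ Tau+ and at most 0.820 in Ch25h+/+ Tau-. Spp1 (osteopontin) rose by 1.79 (standard error 0.37), fibronectin Fn1 by 0.63 (standard error 0.15) and vitronectin Vtn by 0.51 (standard error 0.12), with edgeR adjusted p of 0.0144, 0.0357 and 0.0344. Markers of the meninges (7 genes) summed to a median of 74.1 CPM without and 137 with tau in Ch25h+/+ (ranges 51.7 to 98.1 and 82.7 to 166), and to 58.9 and 97.7 in Ch25h-/-. Markers of border-associated macrophages (5 genes) had medians of 10.3 and 15.4 CPM in Ch25h+/+, with overlap, and 8.62 and 11.8 in Ch25h-/-. The part of these cells in the rise of the ligands was not tested. Of 20 other adhesion molecules of endothelium and leukocytes 15 were tested and 0 passed (edgeR), with 5 at an unadjusted p under 0.05, against 9.38% of all genes, and DESeq2 called 1 and limma-voom 2 of them, where they called 2.39% and 2.81% of all genes. The medians of the 4 lists were 0.19 for integrin subunits, 0.07 for activation genes, 0.35 for ligands and 0.12 for adhesion molecules, beside -0.01 over all genes.

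In Ch25h-/- 0 genes of the 4 lists passed for tau, in edgeR, DESeq2 and limma-voom alike, with 1, 1, 3 and 0 at an unadjusted p under 0.05 in the integrin, activation, ligand and adhesion lists, against 3.68% of all genes. Every Tau+ library was above every Tau- library for 3, 1, 0 and 0 genes of these lists, against 1.14% of all genes. With Ch25h loss in Tau+ 10 genes of the lists were lower and 0 higher, where 3.55% of all genes passed in either direction. They included Itgax and Itgb5, then Fermt3, Fgr, Lyn and Tln1, then C3 and Vtn, and Selplg, of which Tln1 and Selplg are not covered by the rule for named genes and were picked with their values known. Itgb5 fell by 0.62 (standard error 0.09) and Fermt3 by 0.80 (standard error 0.15), with edgeR adjusted p of 0.00169 and 0.00915. With the covariate for rRNA class 1 of the 10 passed, in a fit that called 0.0564% of all genes. Only 1 Ch25h-/- library is rRNA-poor, so the loss of calls in that fit cannot separate Ch25h genotype from the class. For Ch25h loss in Tau- 0 passed (edgeR), with 4, 5, 1 and 1 at an unadjusted p under 0.05, against 20.9% of all genes, while DESeq2 called 3 genes (Lims1, Src and Fn1) and limma-voom 3 (Itga2b, Lims1 and Src), where they called 7.16% and 7.83% of all genes. For the interaction 0 passed (edgeR), with 1, 5, 4 and 3 at that unadjusted threshold, against 4.13% of all genes, while DESeq2 called Fyb and C3, against 0.31% of all genes, and limma-voom 0.

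**Figure D5:**
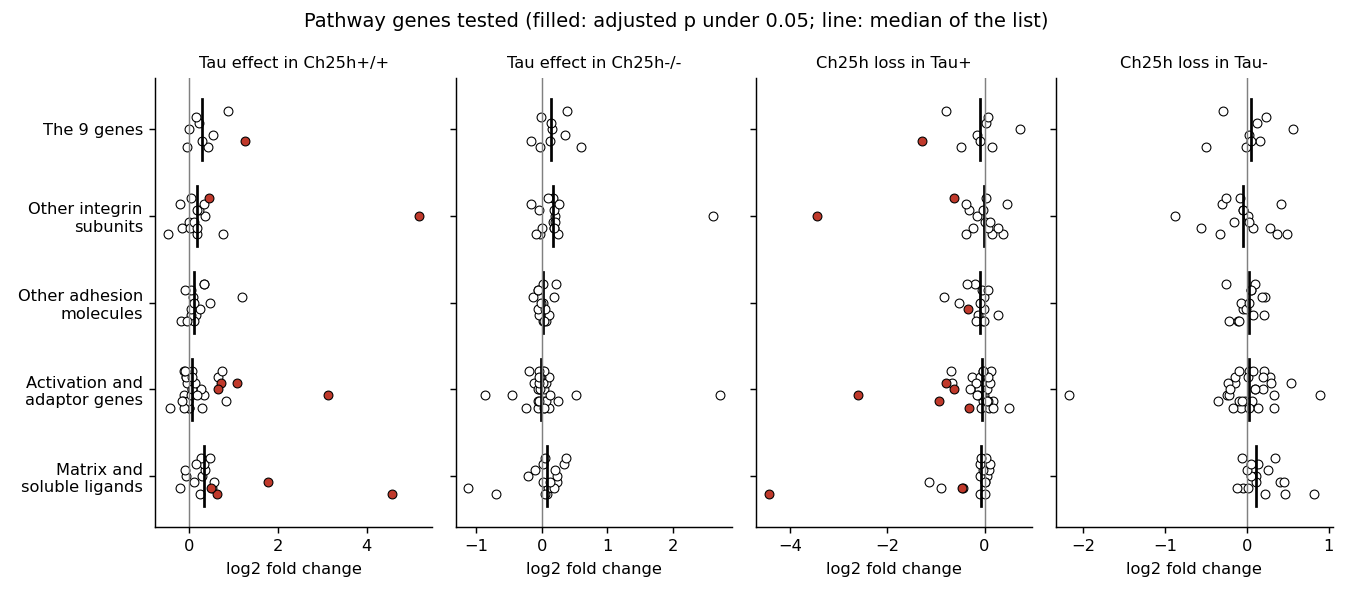
Log2 fold changes of the 9 genes and of the tested genes of the 4 pathway lists in 4 comparisons, each point 1 gene, filled where the adjusted p was under 0.05, with the median of each list as a line and a separate horizontal scale per panel. Filled points lie to the right of 0 with tau in Ch25h+/+ and to the left with Ch25h loss in Tau+, and there are none in the other panels.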

How the data were processed

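The 9 genes were measured by bulk RNA-seq in 16 libraries, 4 per group. The deposited table holds whole-number counts per gene with no normalization. Reads were aligned with STAR 2.7 to GRCm38 (mm10), per the submitters' processing notes, and the counting program, annotation and use of strand are not given in the sources used here. Libraries were prepared from total RNA with a SMARTer kit, per the labels' protocols. Totals were 15530352 to 25602500 counts per library, and at least 99.9% of them fell in the 17736 genes kept by edgeR's filterByExpr. The counts of a gene per library, given in the text where low, limit the precision of its values.

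CPM were computed on library sizes scaled by the trimmed mean of M-values, and CPM per kilobase on the union of exons of GENCODE M21, which held 98.9% of the symbols. Each comparison was tested with edgeR 4.0.16 (quasi-likelihood test) under R 4.3.3, fitted once to the 16 libraries together, with Benjamini-Hochberg adjustment over 17736 genes and a threshold of 0.05. Comparisons, 5 in all, were of the tau effect with and without Ch25h, of Ch25h loss with and without tau, and of their interaction. A call is an adjusted p under 0.05. The edgeR script was tested on simulated data. Ratios were compared with exact permutation tests.

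All 9 genes are named in every comparison. Of each pathway list at most 4 genes past the threshold were named, by the smallest p of the tau effect in Ch25h+/+, and for each of the 9 up to 3 genes with the highest correlation among genes whose log2 CPM averaged 1 or more. The genes, the pathway lists and the marker lists were chosen with earlier results of these data known. Some genes that these rules select are not reported here. Alternatives were other size factors, filters on counts, DESeq2 1.42.0, limma 3.58.1 (voom with quality weights), a surrogate variable (sva 3.50.0), covariates for rRNA class and choroid plexus markers, GC offsets, only the libraries compared, and each library left out in turn. Fits of only the rRNA-poor or rRNA-rich libraries, split at 1000 CPM of CT010467.1, were added after seeing the data.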

Additional observations from a re-analysis of the deposited data

Results flagged for a closer look

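Of 80 sets of 4 libraries examined, 7 held a library far from the other 3 by Dixon's gap test at the 95% level, where chance gives about 1 in 20. All 7 are log2 ratios, and none is a level of one of the 9 genes.

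In Ch25h-/- Tau+ the ratio of Itgal to Itgb2 was -1.20 in replicate 4 and -1.01 to -0.98 in the others. For Icam2 over endothelial markers replicate 2 of that group stood at -2.61, and the others lay between -2.98 and -2.95.

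In Ch25h+/+ Tau+ the ratio of Itgam to homeostatic microglia markers was -1.83 in replicate 1 and between -2.19 and -2.15 in the other libraries. Replicate 3 of that group was low in both ratios to endothelial markers, with -2.48 for Icam1 (others -2.07 to -2.02) and 1.23 for Itgb1 (others 1.43 to 1.47). The shared endothelial denominator enters both values.

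For Itga6 over Itgb1, replicate 3 of Ch25h+/+ Tau- was at -1.35 (others -1.10 to -1.07). Replicate 3 of Ch25h-/- Tau- was at -0.83, where the others were all close to -1.14.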

How the results depend on the processing

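No paired analysis was possible because the labels carry no replicate numbers, and those used here are in accession order. Itgb2 kept its call for tau in Ch25h+/+ in every alternative run, with log2 fold changes of 1.05 to 1.39 when 1 library was left out. Its call for Ch25h loss in Tau+ was lost with the rRNA class covariate (-1.55) and in rRNA-poor libraries alone (-1.55), where Ch25h-/- is 1 library assumed to vary like the others. The cause of other changes was not tested.

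Of the 9 genes, 2 were called for tau in Ch25h+/+ with relative log expression factors, with a filter of 1 count in all or of 50 counts on average, DESeq2, limma-voom, the choroid covariate, only the libraries compared and only the rRNA-poor libraries, fits that called at most 2.81% of all genes. For Ch25h loss in Tau+ 3 were called with at least 1 count (2.58% of all genes), DESeq2 (9.79%) and limma-voom (10.6%), 2 with a mean of 50 (5.34%), and 0 with the class covariate (0.0564%) or rRNA-poor libraries (0.0157%). For the interaction 1 was called with at least 1 count (0.168%) and DESeq2 (0.31%). Leaving out 1 library gave 1 to 2, 1 to 2 and 0 to 1.

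Over all genes, tau in Ch25h+/+ gave 277 calls, 424 with DESeq2, 498 with limma-voom and 160 (without Ch25h+/+ Tau+ replicate 4) to 299 with 1 library left out. Tau in Ch25h-/- gave 7, with 28 (at least 1 count), 2 (mean of 50), 14 (DESeq2) and 6 to 13. Ch25h loss in Tau+ gave 629, with 1501 (DESeq2), 1883 (limma-voom), 10 (class), 188 (GC), 106 (only the libraries compared), 3 (rRNA-poor), and 108 (without Ch25h+/+ Tau+ replicate 4) to 1691 (without Ch25h-/- Tau+ replicate 1). Ch25h loss in Tau- gave 182, with 522 (at least 1 count), 1048 (DESeq2), 1388 (limma-voom), 3 (surrogate variable), 0 (class), 13 (GC), 1229 (only the libraries compared), and 3 (without Ch25h+/+ Tau- replicate 1) to 1306 (without Ch25h+/+ Tau+ replicate 1). The interaction gave 6, with 57 (at least 1 count), 55 (DESeq2), 3 (class), 11 (choroid) and 0 to 22.

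Values near 0 changed sign. For tau in Ch25h+/+ Itga4 was -0.0013 (DESeq2) and -0.012 (GC), and for tau in Ch25h-/- Itga6 was 0.0086 (limma-voom), 0.026 (class) and 0.014 (rRNA-rich only). For Ch25h loss in Tau+ Itgb1 was -0.052 (class), -0.064 (GC) and -0.047 (rRNA-poor), and Itga6 -0.023 (limma-voom), -0.019 (class) and -0.015 (rRNA-poor). For Ch25h loss in Tau- Itgam was 0.016 (mean of 50), 0.041 (limma-voom), 0.024 (surrogate variable) and 0.13 (class), Itgb2 -0.20, Itgal -0.33 and Vcam1 -0.38 (class), and Vcam1 -0.15 (GC).

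With 1 library left out, tau in Ch25h+/+ ranged from -0.20 to 0.16 in Itga4 and -0.21 to 0.085 in Icam2, and tau in Ch25h-/- from -0.13 to 0.11 in Itgam, -0.068 to 0.045 in Itga6 and -0.060 to 0.23 in Vcam1. Ch25h loss in Tau+ ranged from -0.014 to 0.050 in Itgb1 and -0.075 to 0.15 in Itga6, and in Tau- from -0.15 to 0.074 in Itgam, -0.11 to 0.15 in Itgal and -0.0061 to 0.11 in Vcam1. The interaction of Itga4 ranged from -0.0050 to 0.36.

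Among ratios, Itga6 over Itgb1 ranged from -0.19 to 0.032 (tau in Ch25h+/+) and -0.082 to 0.14 (loss in Tau+). Itga6 over endothelial markers ranged from -0.071 to 0.11 (tau in Ch25h+/+) and -0.093 to 0.011 (tau in Ch25h-/-). Vcam1 over endothelial markers ranged from -0.18 to 0.048 (loss in Tau+), -0.039 to 0.12 (loss in Tau-) and -0.026 to 0.15 (tau in Ch25h-/-). Itgam over homeostatic markers ranged from -0.19 to 0.039 (loss in Tau-) and -0.16 to 0.053 (tau in Ch25h-/-), Itga4 over Itgb1 from -0.15 to 0.21 (tau in Ch25h-/-) and Itgal over Itgb2 from -0.24 to 0.0049 (loss in Tau-). Itgal, Icam2 and Icam1 have the fewest counts of the 9, which limits small differences in them.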
